A study of Mus musculus with 7 samples.

Results

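Forkhead transcription factor genes were scored for open chromatin in alpha, beta, and delta cells of the mouse pancreatic islet. The members were the GENCODE protein-coding genes whose symbol begins with Fox, followed by a letter from a to s and a number, with Foxa1 and Foxa2 left out. This rule gave 42 of the 21911 protein-coding genes, and it used no measured value. ATAC-Seq, in which a transposase cuts and tags accessible DNA, had been run on sorted islet cells, and 7 libraries were scored: 2 of alpha cells, 3 of beta cells, and 2 of delta cells. A further beta library had been removed by the study for its low fraction of reads in peaks and is not among these. The mice carried 3 transgenes: mIns1-H2b-mCherry, in which the Ins1 promoter drives a red nuclear reporter in beta cells, Rosa-LSL-YFP, and either Sst-Cre or Gcg-Cre, which switches on the yellow reporter in delta or in alpha cells, respectively. Islets of several mice were pooled by sex within each cross before sorting, the libraries are labelled as biological replicates, and the labels give neither the ages nor a treatment. The reporters follow the Ins1, Sst, and Gcg genes, so that each sorted group is defined by a hormone promoter and not by its chromatin. Because each library is a bulk sample, fewer cells with an open site and less accessible DNA per cell cannot be told apart.

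Forkhead proteins bind DNA through a winged-helix domain, and several of them can bind sites in compacted chromatin. FOXO proteins are retained in the cytoplasm when insulin and growth factor signaling through AKT phosphorylates them, and in beta cells Foxo1 has been tied to the response to metabolic stress and to the maintenance of cell identity. FOXP proteins act mainly as repressors, and other forkhead genes pattern the early embryo, the kidney, the heart, or the cilia of epithelia.

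The files list peaks, not reads, so that each gene was described by whether a list held a peak within 1 kb of its 5′ end (its TSS) and by the rank of the strongest such peak, where rank 1 is the lowest p-value of that list. The lists held 75860 to 518503 distinct peaks, with the highest number in beta replicate 1, and 4.996% to 54.9% of a list's peaks reached a −log10 q of 2 or more. Across all genes, 48.9% to 69.7% had a TSS peak in a given library. The lists' own names carry lane codes, which are the same for alpha 1, alpha 2, and beta 1 and another for the remaining 4 libraries, so that alpha against delta cannot be told apart from lane. The names of the 3 beta lists carry alpha (beta 1) or delta (beta 2 and beta 3), and the labels were followed. By the study's methods, beta cells were sorted beside alpha cells from the Gcg-Cre cross and beside delta cells from the Sst-Cre cross, so that beta libraries share mice with alpha or delta libraries. Among marker genes, all 8 of the alpha list had a TSS peak in both alpha libraries, and Gcg had none in any beta library. Of the same 8, 7 had a TSS peak in delta 1 (all but Gcg), 8 in delta 2, and 5, 4, and 7 in the beta libraries. These peaks therefore did not set the alpha libraries apart from the delta libraries. Of the 9 beta markers 4 to 7 had a TSS peak in a beta library, beside 5 to 6 in the alpha and delta libraries, so that these peaks did not set the beta libraries apart, with Slc2a2 and G6pc2 at none in any library and Ins2 in beta 3 alone. Of the 6 delta markers, 5 had a TSS peak in each delta library, and also 5 in beta 1, none in beta 2, 1 in beta 3, and 4 in each alpha library. Sst had a TSS peak in both delta libraries and in beta 1. Acinar markers were found in 0 to 2 cases per library, duct markers in 1 to 2, endothelial markers in 0 to 1, mesenchymal markers in 0 to 3, and immune markers in 0 to 2. Peaks on the Y chromosome made up 0.0816% to 0.121% of the lists of alpha 1, beta 2, and delta 1 and 0.442% to 3.52% of the others.

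The sequences at 3 kinds of forkhead start introduce what the peak lists show. The first set is an open start (Foxo1), a start whose peak was weaker in beta cells (Foxj1), and a gene whose annotated 5′ end had no peak while a start further inside did (Foxj3), and Foxp3 adds the start of most of its transcripts. Each is 300 bases from 250 before to 50 after the start, read from the GRCm38.p6 genome of RefSeq, which has the coordinates of mm10, and capitals mark CpG dinucleotides.
Foxo1 5′ end, chr3:52268086-52268385 (+): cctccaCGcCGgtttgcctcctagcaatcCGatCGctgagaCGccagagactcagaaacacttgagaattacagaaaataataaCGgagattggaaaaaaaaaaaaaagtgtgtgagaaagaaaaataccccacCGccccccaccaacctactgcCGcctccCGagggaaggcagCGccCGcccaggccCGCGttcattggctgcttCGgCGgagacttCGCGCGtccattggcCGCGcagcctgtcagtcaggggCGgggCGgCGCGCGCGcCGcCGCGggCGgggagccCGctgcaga
Foxj1 5′ end, chr11:116335350-116335649 (−): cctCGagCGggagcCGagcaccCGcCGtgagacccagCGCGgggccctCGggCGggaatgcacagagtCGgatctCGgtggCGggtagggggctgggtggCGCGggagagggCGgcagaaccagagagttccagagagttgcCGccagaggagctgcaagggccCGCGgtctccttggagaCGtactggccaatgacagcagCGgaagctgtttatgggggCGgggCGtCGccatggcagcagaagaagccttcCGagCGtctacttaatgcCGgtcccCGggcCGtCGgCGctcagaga
Foxj3 5′ end, chr4:119536754-119537053 (+): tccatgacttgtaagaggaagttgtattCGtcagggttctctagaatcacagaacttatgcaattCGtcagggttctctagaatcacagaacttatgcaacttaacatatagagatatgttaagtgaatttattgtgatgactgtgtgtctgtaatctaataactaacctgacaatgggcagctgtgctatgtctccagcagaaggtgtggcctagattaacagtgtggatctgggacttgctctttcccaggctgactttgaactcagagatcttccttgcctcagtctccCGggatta
Foxj3 internal start, chr4:119539411-119539710 (+): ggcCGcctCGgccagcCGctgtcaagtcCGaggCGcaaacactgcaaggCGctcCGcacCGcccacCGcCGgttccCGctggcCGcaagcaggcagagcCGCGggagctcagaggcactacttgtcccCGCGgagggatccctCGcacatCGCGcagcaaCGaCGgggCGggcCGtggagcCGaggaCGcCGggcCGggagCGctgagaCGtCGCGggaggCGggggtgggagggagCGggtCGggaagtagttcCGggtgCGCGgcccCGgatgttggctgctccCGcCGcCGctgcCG
Foxp3 internal start, chrX:7579317-7579616 (+): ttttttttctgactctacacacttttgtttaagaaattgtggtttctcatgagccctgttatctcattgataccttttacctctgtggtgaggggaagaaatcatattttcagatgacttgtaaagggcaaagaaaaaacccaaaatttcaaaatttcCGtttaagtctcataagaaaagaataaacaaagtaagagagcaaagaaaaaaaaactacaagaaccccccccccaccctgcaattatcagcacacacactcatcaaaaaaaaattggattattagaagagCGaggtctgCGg
Foxo1 held 31 CpGs in this window and Foxj1 held 30. The Foxj3 5′ end held 3, whereas the Foxj3 internal start held 42. The Foxp3 internal start held 3.

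A pair of regions outside the TSS windows of protein-coding genes is shown because the first, in an intron of Foxp1, had peaks in both alpha and both delta libraries and in no beta library, and the second, upstream of Foxj2, ranked among the strongest peaks of every library. Each is 200 bases on the plus strand, from the same genome, around the summit of the region's peak of highest fold enrichment over the libraries. Capitals mark the forkhead motif letters TGTTTAC or TGTTTGC on either strand.
Foxp1 intron 8, chr6:99011945-99012144 (+): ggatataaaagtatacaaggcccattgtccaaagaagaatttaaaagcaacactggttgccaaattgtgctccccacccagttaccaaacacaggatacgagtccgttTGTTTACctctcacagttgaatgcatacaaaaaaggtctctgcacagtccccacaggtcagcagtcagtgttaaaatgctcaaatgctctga
Foxj2 upstream region, chr6:122810923-122811122 (+): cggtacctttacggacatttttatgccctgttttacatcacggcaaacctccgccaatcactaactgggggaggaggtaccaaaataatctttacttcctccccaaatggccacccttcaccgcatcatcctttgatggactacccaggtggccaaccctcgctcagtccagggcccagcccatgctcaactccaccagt
The Foxp1 sequence held 1 TGTTTAC and the Foxj2 sequence held neither motif.

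Most forkhead genes fell into an open or a weakly marked set. Few had a TSS peak in 2 or more replicates of a cell type and in no replicate of another. Such calls were also few among all genes. No gene of any kind passed the tests over cell types given below, so that those tests cannot tell whether forkhead genes differ. Of the 42 members, 21 had a TSS peak in 2 or more alpha replicates (50%, against 56.8% of all genes), 23 in 2 or more beta replicates (54.8%, against 56.1%), and 20 in both delta replicates (47.6%, against 54.1%). In all 7 libraries 16 members had a TSS peak (38.1%, against 41.5%), and 5 had none in any library (11.9%, against 17.3%). The median member had a TSS peak in 4 libraries, and the median gene in 6, while the means were 4.07 and 4.16. Among peaks whose −log10 q was 2 or more, 19 members were called in alpha cells (45.2%, against 51.4%), 14 in beta cells (33.3%, against 41.4%), and 17 in delta cells (40.5%, against 48.3%). At that threshold 14 members were called in all 7 libraries (33.3%, against 31.1%) and 15 in none (35.7%, against 38.1%). These shares lie near those of all genes and are no result about the family.

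**Figure D1:**
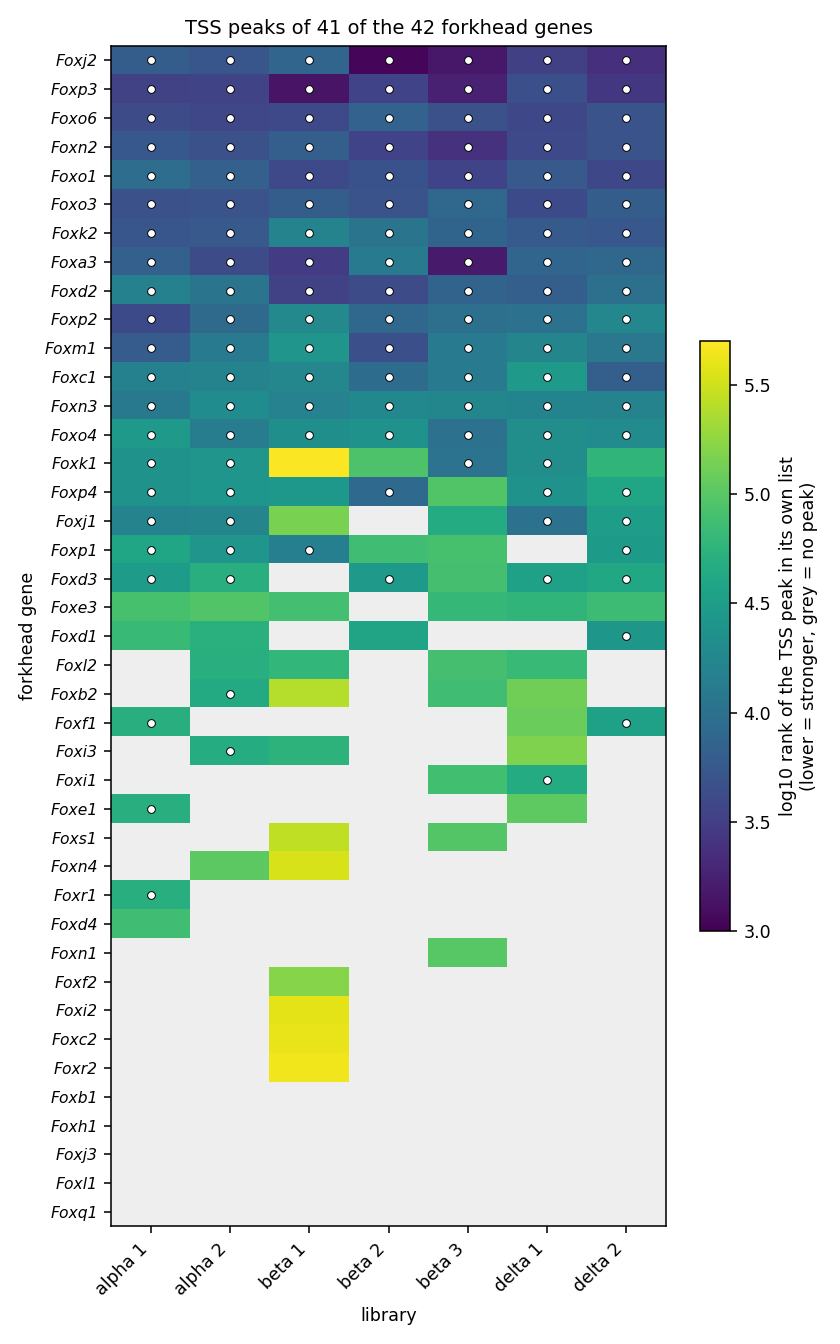
TSS peaks of 41 of the 42 forkhead genes. Each row is a gene and each column a library, the color gives the log10 rank of the strongest peak within 1 kb of the 5′ end, gray cells have no peak, and white dots mark a −log10 q of 2 or more. A peak is shown in all 7 libraries for 16 genes, and 5 genes are gray throughout.

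The 16 members with a TSS peak in every library were Foxo1, Foxo3, Foxo4, Foxo6, Foxp2, Foxp3, Foxp4, Foxa3, Foxk1, Foxk2, Foxm1, Foxj2, Foxn2, Foxn3, Foxc1, and Foxd2. All but Foxp4 and Foxk1 kept a −log10 q of 2 or more in every library. The 5 without a peak were Foxq1, Foxh1 (a partner of SMAD proteins in nodal signaling), Foxj3, Foxl1 (a gene of gut mesenchyme), and Foxb1 (a gene of the developing brain). The other 21 members had a peak in 1 to 6 libraries. For Foxf2, Foxi2, Foxc2, and Foxr2, that peak was found in beta 1 alone, which had the longest list, at ranks of 163804 to 440382 and a −log10 q of 0.0774. Foxa1 and Foxa2, the pair that the rule leaves out, had TSS peaks in all 7 libraries, at ranks of 6059 to 32609 and of 5260 to 23085.

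The FOXO genes, the effectors of insulin and growth factor signaling, were open at the 5′ end in every library. The TSS peak of Foxo1 (ENSMUSG00000044167.6, chr3:52268336-52353221, plus strand) ranked 9117 and 6680 in alpha cells, 3937, 4756, and 3526 in beta cells, and 5717 and 3820 in delta cells. Both alpha ranks were weaker than all 5 others. The exact permutation test over the 3 cell types gave p = 0.0952 and a Benjamini-Hochberg adjusted p of 0.559 over all genes tested, which does not pass the threshold.

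Foxo3 (ENSMUSG00000048756.11, chr10:42181841-42276755, minus strand), which with Foxo1 carries much of the family's activity in adult tissues, ranked 4658 and 4883 in alpha cells, 6270, 4927, and 8073 in beta cells, and 4025 and 6307 in delta cells. The summits of these peaks lay at −1108 to −1003 bp from the 5′ end. The Foxo3 region with its summit at −37 bp ranked 20919 and 22799 in alpha cells and 28184 and 8160 in delta cells. In beta cells that region ranked 79650, 59421, and 9674, and it reached a −log10 q of 2 or more in 1 beta library. Foxo6 (ENSMUSG00000052135.8, chr4:120267079-120287349, minus strand), best known from brain, ranked 4117 and 3756 in alpha cells, 3947, 7125, and 4695 in beta cells, and 3810 and 4852 in delta cells. The groups overlapped for both genes. The X-linked Foxo4 (ENSMUSG00000042903.8, chrX:101254528-101260873, plus strand) was the weakest of the 4, with ranks of 28734 and 13493 in alpha cells, 21931, 24215, and 10233 in beta cells, and 21589 and 20094 in delta cells. The 3 libraries with few Y chromosome peaks, which the study's quality table lists as female, ranked 28734, 24215, and 21589 at Foxo4. The other 4, listed as male, ranked 10233 to 21931. These ranges overlapped, and the part of sex was not tested.

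Genes of the FoxO pathway, a list of 32 regulators, cofactors, and targets, were likewise mostly open. A TSS peak was called in all 7 libraries for 22 of them (68.8%, beside 41.5% of all genes), in 1 to 6 libraries for 8 (Pdpk1, Akt1, Sirt1, Skp2, Usp7, Stk4, Cdkn1a, and Pck1), and in none for Ywhaz and G6pc. With a −log10 q of 2 or more, 19 (59.4%, beside 31.1%) were called in all 7. The receptor gene Insr ranked 2170 to 5329, and the adaptor genes Irs1 and Irs2 ranked 1708 to 5126 and 2127 to 11688. Among the FoxO targets, the DNA damage response gene Gadd45a ranked 76 to 797 and Sod2, which encodes mitochondrial superoxide dismutase, ranked 736 to 1968. The list was drawn from textbook knowledge, and its members include genes active in most cells, so that its share says nothing particular about islets.

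The FOXP genes, whose proteins can pair with each other, ranked at unequal levels. Foxp2 (ENSMUSG00000029563.16, chr6:14901349-15441977, plus strand), known for its part in speech and in neuronal development, ranked 4050 and 8476 in alpha cells, 18546, 8118, and 9912 in beta cells, and 10406 and 17579 in delta cells. Foxp4 (ENSMUSG00000023991.16, chr17:47867133-47924645, minus strand) ranked 23854 and 26125 in alpha cells, 27772, 8470, and 92828 in beta cells, and 24378 and 39410 in delta cells. The beta libraries alone spanned the values of every other library for Foxp4.

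Foxp1 (ENSMUSG00000030067.17, chr6:98925338-99522721, minus strand), a repressor that acts in lymphocytes, neurons, and islet alpha cells, ranked 38515 and 25364 in alpha cells and 14805, 74692, and 81113 in beta cells at its 5′ end. Delta 1 had no peak within 1 kb of that end, and delta 2 ranked 29654. A start group 1559 bp downstream, with 2 coding transcripts, had a peak in all 7 libraries. Its ranks were 28636 and 37228 in alpha cells, 14805, 32865, and 18732 in beta cells, and 30112 and 65135 in delta cells. The beta 1 peak at 14805 is the same peak as at the 5′ end, as both windows reach it. The region over the downstream starts (chr6:99520853-99521863) ranked 79307 in beta 1, and it reached a −log10 q of 2 or more in 1 beta library. The GENCODE annotation gives Foxp1 14 groups of transcript starts, and the promoter near its 3′ end was called more often than most. The starts 493779 and 494408 bp downstream of the 5′ end shared a peak in 6 libraries, with ranks of 37174 and 18250 in alpha cells, 18524 and 38497 in beta 1 and beta 3, and 16817 and 17869 in delta cells. Beta 2 had no peak at these starts. A group of 6 transcripts further upstream had no peak in any library.

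**Figure D2:**
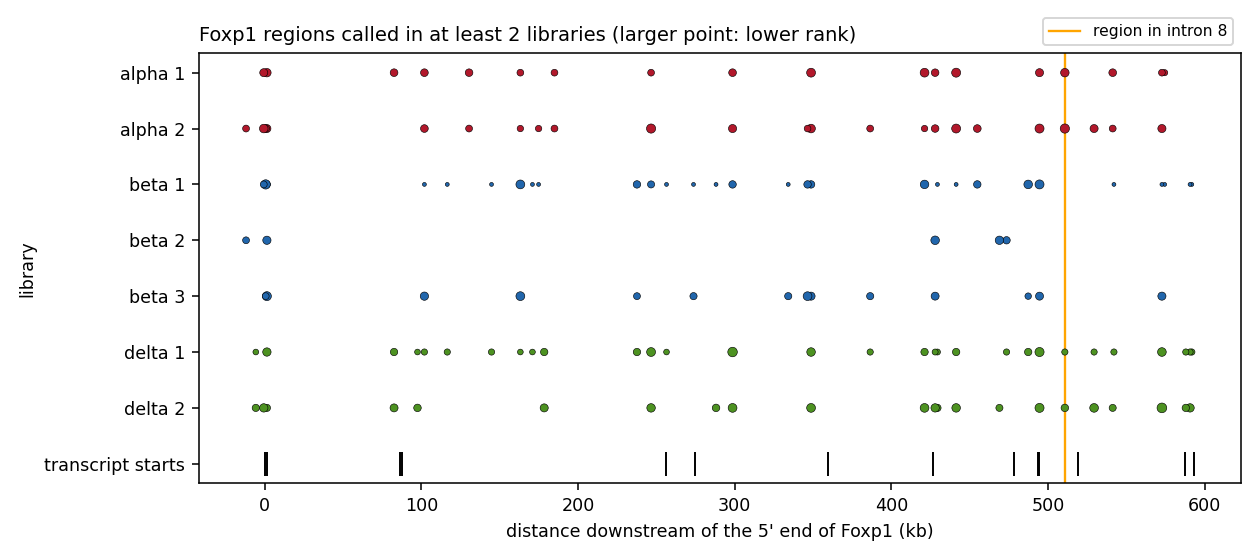
Regions of Foxp1 called in 2 or more libraries. The horizontal axis gives the distance downstream of the 5′ end in kb, each row is a library with a point per peak (larger for a lower rank), ticks are annotated transcript starts, and the orange line marks the intron 8 region at 510676 bp, which has points in both alpha and both delta libraries and in no beta library.

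Foxp3 (ENSMUSG00000039521.13, chrX:7573644-7595245, plus strand), the master regulator of regulatory T cells, carried one of the stronger TSS peaks of the family. Its ranks were 3332 and 3606 in alpha cells, 1400, 3473, and 1778 in beta cells, and 4606 and 2744 in delta cells. That peak also lay within 1 kb of the start of Ppp1r3f, with a summit 740 to 778 bp downstream of the Foxp3 5′ end. The start of 6 of the Foxp3 transcripts, 5923 bp further in and shown above, had a peak in beta 1 alone, at rank 420023. Among the 5 immune markers, Ptprc, Itgam, and the T cell gene Cd3e had a TSS peak in no library. Cd68 had a TSS peak in 1 beta library, and Adgre1 in 1 beta and 1 delta library. In no library did these reach a −log10 q of 2 or more.

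The other forkhead genes named for their roles in growth and metabolism also had a TSS peak in every library, though a weak one for Foxk1 in some. Foxa3 (ENSMUSG00000040891.6, chr7:19013284-19023538, minus strand), the third member of the FOXA group that controls liver and gut endoderm genes, ranked 6730 and 4260 in alpha cells, 2999, 12541, and 1549 in beta cells, and 7558 and 8123 in delta cells. The beta libraries held both its highest and its lowest ranks. The summit lay at −829 to −745 bp from the 5′ end, and the same peak lay at the start of Sympk.

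Foxk1 (ENSMUSG00000056493.9, chr5:142401497-142462011, plus strand) and Foxk2 encode repressors of autophagy genes that respond to nutrients. Foxk1 ranked 24270 and 25777 in alpha cells, 486064, 88381, and 10613 in beta cells, and 21817 and 57935 in delta cells. Its −log10 q was below 2 in beta 1 (0.0774), beta 2 (0.816), and delta 2 (1.93). The strongest Foxk1 peaks of beta 1 and beta 2 had summits at −710 and −378 bp from the 5′ end, against 22 to 289 bp elsewhere. Foxk2 ranked 5337 and 5718 in alpha cells, 16149, 10884, and 7334 in beta cells, and 5885 and 5373 in delta cells. All 3 beta ranks of Foxk2 were weaker than the 4 others, whereas those of Foxk1 spanned them. Foxm1, which drives genes of mitosis in dividing beta cells, ranked 6122 and 12811 in alpha cells, 25833, 4545, and 12678 in beta cells, and 16818 and 12108 in delta cells. Its peak also lay at the start of Rhno1, which lies head to head with it.

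Foxj1, the regulator of motile cilia, was the only member that, among peaks whose −log10 q was 2 or more, was called in one cell type and in no library of another. Its TSS (ENSMUSG00000034227.7, chr11:116330704-116335399, minus strand) ranked 16211 and 16886 in alpha cells, 141879 and 46062 in beta 1 and beta 3, and 10314 and 32103 in delta cells, and beta 2 had no peak. The −log10 q was 8.42 and 8.75 in alpha cells, 0.0774 and 1.43 in beta 1 and beta 3, and 16.5 and 3.21 in delta cells. All 4 alpha and delta libraries were stronger than any beta library, also within each lane: both alpha libraries against beta 1, and both delta libraries against beta 2 and beta 3. At this threshold Foxj1 was the 1 member called over beta cells in alpha (against 4.2% of all genes) and in delta (against 2.94%). The exact permutation test of the rank gave p = 0.0667, with an adjusted p of 0.535, which does not pass the threshold. In the study's quality table the beta libraries had more total reads but fewer uniquely mapped reads than the alpha libraries. Beta and delta libraries overlapped in uniquely mapped reads. The part of read number in the difference at Foxj1 was not tested.

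Counting every peak, alpha cells had 0 members with a TSS peak in at least 2 replicates and none in beta cells (against 1.29% of all genes), and 0 over delta cells (against 1.2%). Delta cells likewise had 0 members over alpha cells (against 0.543%). Foxs1, a forkhead gene of pericytes and neural crest, was the 1 member called in beta over alpha cells (against 2.38%) and in beta over delta cells (against 2.6%). Its peaks ranked 276485 in beta 1 and 94411 in beta 3, with a −log10 q of 0.0774 and 0.517, and the call was lost without either of these libraries. Foxf1, a gene of gut and lung mesenchyme, was the 1 member in delta over beta cells (against 0.808%). It ranked 122063 and 35392 in delta cells and 48943 in alpha 1, and alpha 2 and all beta libraries had no peak. The −log10 q was 0.951 in delta 1 and 3.21 in delta 2, and the call was lost at a −log10 q of 2 or more. These delta peaks did not overlap each other, and that of delta 2 overlapped the peak of alpha 1. Of the 5 mesenchymal markers, 2 and 1 had a TSS peak in the delta libraries, 3 and 2 in the alpha libraries, and 1, 1, and 0 in the beta libraries, with Col3a1 at none in any library, and their part in these calls was not tested. With 2 libraries against 3, the smallest p that an exact two-sided test can give is 0.1, and with 2 against 2 it is 0.333, so that no pair of cell types was tested alone.

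**Figure D3:**
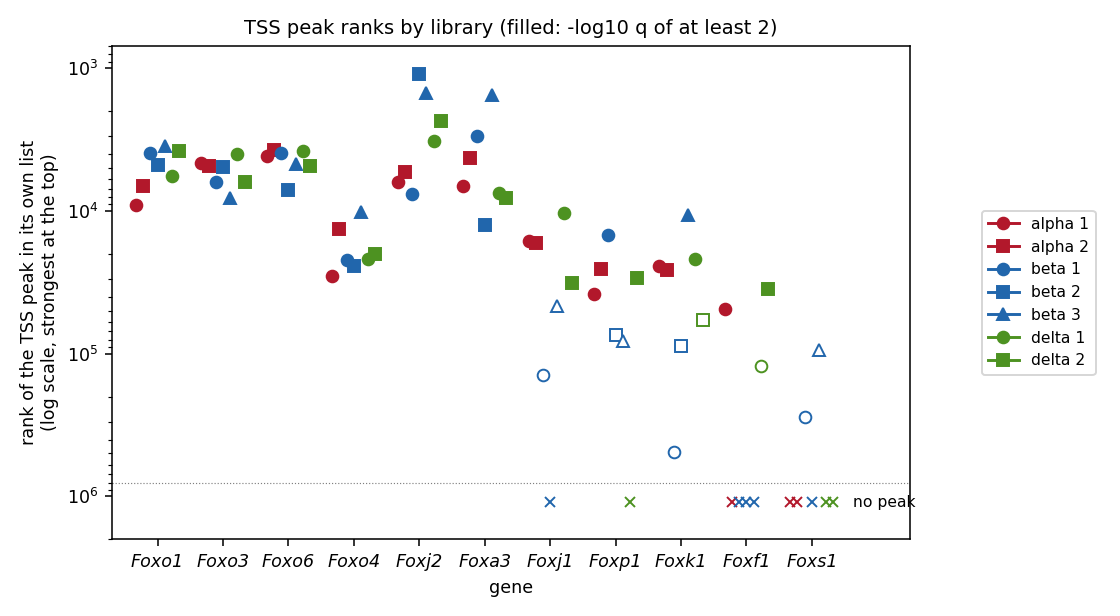
TSS peak ranks of 11 forkhead genes by library, on a reversed log axis with the strongest ranks at the top. Each symbol is 1 library, filled where the −log10 q is 2 or more, and crosses below the dotted line are libraries without a peak. For Foxj1 all alpha and delta symbols are filled and lie above the beta symbols, whereas the groups overlap for Foxo3, Foxo6, and Foxk1.

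A test over the 3 cell types was made with the rank of the TSS peak, capped at 50000, for 14015 genes with a peak among the 50000 strongest of any list, 26 of them members. It has 210 assignments of the libraries and a smallest possible p of 0.00952. At that smallest p were 2.28% of genes and 0 members, and below 0.05 were 9.71% of genes and 0 members, the smallest member p being 0.0667, at Foxj1 and Foxd2. Foxd2 ranked 15428 and 10992 in alpha cells, 3411, 4247, and 7194 in beta cells, and 6526 and 9971 in delta cells. After Benjamini-Hochberg adjustment 0 genes passed (0%), and the smallest adjusted p of this exact test was 0.417. The p-values measure only the spread between these 7 libraries.

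Where a forkhead gene has several starts, the annotated 5′ end did not always carry the peak. Foxj3 (ENSMUSG00000032998.16, chr4:119537004-119629119, plus strand), a gene of muscle fiber and sperm development, had no peak at its 5′ end, which is the start of 1 transcript. The next start group, 2657 bp downstream and the start of 7 transcripts, had a peak in every library, with ranks of 9982 and 14583 in alpha cells, 18114, 27500, and 25080 in beta cells, and 14996 and 17596 in delta cells. The start of Frg2f1 lies within 1 kb of it. Beta ranks were the weakest of the 3 groups here, and all 3 lay beyond the other 4.

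Foxj2 (ENSMUSG00000003154.15, chr6:122819914-122845366, plus strand) ranked ahead of Foxj1 and Foxj3. Its 5′ end ranked 6232 and 5309 in alpha cells, 7669, 1109, and 1504 in beta cells, and 3244 and 2345 in delta cells. An internal start, 6761 bp downstream, ranked 1425 and 821 in alpha cells, 1322, 1117, and 662 in beta cells, and 367 and 764 in delta cells. The groups overlapped at both. In Foxn3, a gene of the cell cycle checkpoint family, starts 169785 and 170510 bp downstream of the 5′ end shared a peak that ranked 28632 and 10801 in alpha cells, 6679, 4603, and 7322 in beta cells, and 10740 and 7470 in delta cells. All 3 beta ranks were stronger than the 4 others, by 7322 against 7470 at the closest.

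The density of CpG dinucleotides went with the number of libraries that had a TSS peak, in forkhead genes as in all genes. The ratio of observed to expected CpG in the 300 bases around the 5′ end had a median of 0.672 in the 42 members and 0.524 in all genes. In the 16 members with a peak in every library it was 0.903 (0.596 to 1.29), beside 0.780 for all such genes. For the 21 members with a peak in 1 to 6 libraries it was 0.655 (0.128 to 1.11), beside 0.343, and for the 5 without a peak it was 0.256 (0.153 to 0.632), beside 0.180. The sequences shown above span this range, with 1.09 at Foxo1, 0.885 at Foxj1, 0.224 at the Foxj3 5′ end, 1.00 at the Foxj3 internal start, and 0.311 at the Foxp3 internal start. The ratio is a description over genes, which share libraries and base composition.

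**Figure D4:**
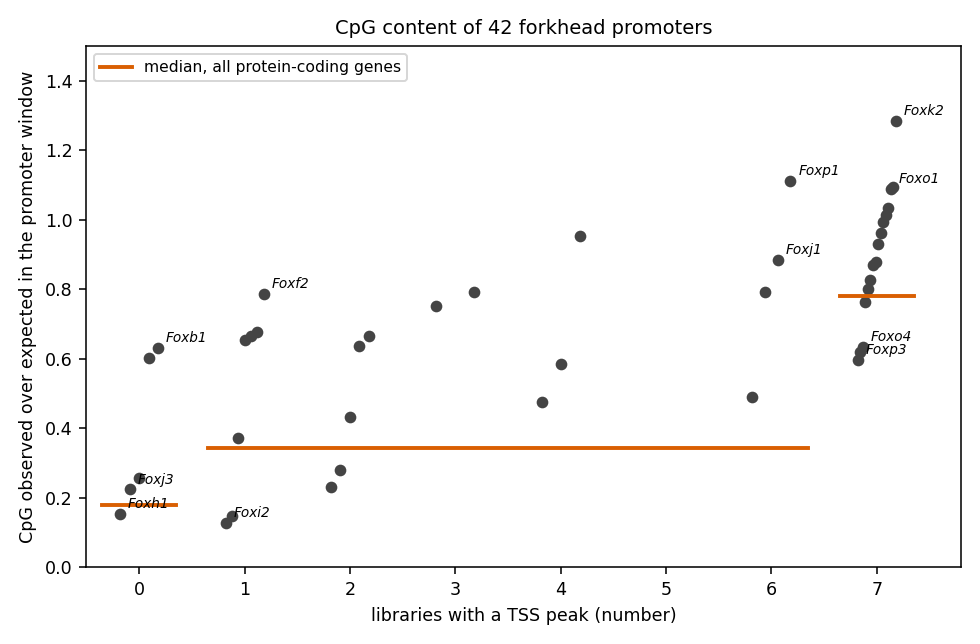
CpG content of the 42 forkhead promoters. Each point is a gene, the horizontal axis is the number of libraries with a TSS peak, the vertical axis is the observed over expected CpG ratio in the 300 bases around the 5′ end, and orange lines are medians of all protein-coding genes with a peak in no library (0.180), in 1 to 6 (0.343), and in all 7 (0.780). The 16 members at 7 libraries lie between 0.596 and 1.29.

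The forkhead motif letters TGTTTAC and TGTTTGC, searched on both strands, were rare at forkhead promoters. TGTTTAC was in 0 of the 42 windows (3.05% of all genes), and TGTTTGC was in 2 (4.76%, against 4.92%), those of Foxn4 and Foxl2. In the 200 bases around the summits of the 311 regions described next, TGTTTAC was in 21 (6.75%, against 4.82% of the regions of all genes) and TGTTTGC in 22 (7.07%, against 6.46%). A match is not a bound site.

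The gene bodies of the members with 20 kb on each side held 1248 merged peak regions, of which 311 (24.9%, against 19.4% of regions of all genes) were called in at least 2 libraries and 43 (3.45%, against 3.26%) in all 7. Of the 311, 166 (53.4%) were intronic, 62 lay within 1 kb of a TSS, 51 were intergenic, 20 were in UTRs, and the rest were in coding or other exons. Long genes held most regions, with 49 in Foxn3, 44 in Foxp1, 34 in Foxp2, 17 in Foxo3, and 14 each in Foxo1 and Foxp4. Of the 43 called in all 7 libraries, 31 lay at a TSS. The counts by position are given without shares over regions of all genes and describe the members alone.

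Outside the TSS windows of protein-coding genes, the strongest regions present in every library included those at Foxj2, Foxn3, and Foxm1. The region upstream of Foxj2 (chr6:122810569-122811653, summit at −8891 bp from the 5′ end) ranked 202 and 547 in alpha cells, 288, 250, and 712 in beta cells, and 335 and 171 in delta cells, and its summit lies 147 bp from the start of Gm5112, a transcript of unconfirmed coding status. It was stronger than the Foxj2 5′ end in every library. The Foxj2 internal start (chr6:122826204-122826853) and the Foxn3 internal start (chr12:99392690-99393549) are the 2 regions already described.

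The region near Foxm1 (chr6:128349735-128350126, summit at −13067 bp from its 5′ end) lies in an intron of Tulp3, and ranked 29832 and 21349 in alpha cells, 21266, 4140, and 8066 in beta cells, and 14398 and 16610 in delta cells. Beta 2 and beta 3 were strongest, and beta 1 ranked next to alpha 2.

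For each pair, regions were counted that had a peak in 2 or more replicates of a cell type and in no replicate of the other. Alpha over beta cells gave 17 (1.36%, against 1.14% of regions of all genes), and beta over alpha cells gave 35 (2.8%, against 2.36%). Alpha over delta cells gave 20 (1.6%, against 1.09%), and delta over alpha cells gave 22 (1.76%, against 0.971%). Beta over delta cells gave 30 (2.4%, against 2.14%), and delta over beta cells gave 17 (1.36%, against 1%).

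With a −log10 q of 2 or more the balance turned toward alpha and delta cells over beta cells. It did so further among regions of all genes, so that the turn is no result about the family. Among 277 member regions, alpha over beta gave 17 (6.14%, against 7.44%) and beta over alpha 14 (5.05%, against 2.22%). Alpha over delta gave 11 (3.97%, against 3.93%) and delta over alpha 6 (2.17%, against 3.4%). Beta over delta gave 7 (2.53%, against 1.71%) and delta over beta 15 (5.42%, against 6.48%). The balance of the all-peak counts also turned without beta 1, which had the longest list, with 35 in alpha over beta, 8 in beta over alpha, 3 in beta over delta, and 37 in delta over beta. Without beta 3 it turned likewise, with 23, 14, 8, and 26, whereas without beta 2 it did not, with 19, 27, 25, and 19. With the 50000 strongest peaks of each list, alpha over beta gave 12 and beta over alpha 16, and beta over delta gave 9 and delta over beta 12. For the counts without a beta library and with 50000 peaks, shares over regions of all genes are not given. Those counts are therefore no result about the family.

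**Figure D5:**
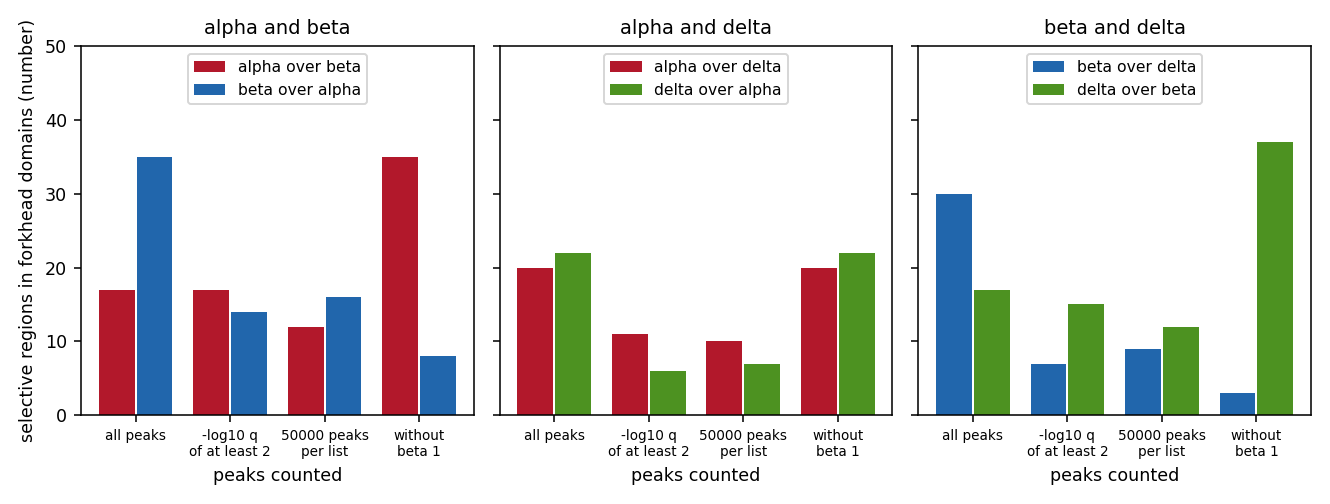
Number of selective regions in the forkhead domains for each pair of cell types. Bars give each direction with all peaks, with a −log10 q of 2 or more, with 50000 peaks per list, and without beta 1. Beta over alpha has 35 regions with all peaks and 8 without beta 1, and alpha over beta has 17 and 35.

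The region in intron 8 of Foxp1 (chr6:99011694-99012304), whose sequence is shown above, ranked 27218 and 15381 in alpha cells and 114610 and 53440 in delta cells, and no beta library had a peak. A −log10 q of 2 or more was reached in both alpha libraries and in no other. Upstream of Foxc1, a gene of mesoderm and the eye, chr13:31792521-31792824 ranked 26098 and 27443 in alpha cells and 31375 in delta 1, with no peak in delta 2 or in any beta library. At Foxk1 a region in a UTR of the neighboring Ap5z1 (chr5:142477351-142477764) was called in alpha cells alone, at 22203 and 38599.

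Upstream of Foxo6 lay a region of beta cells (chr4:120299281-120299629), which ranked 7552 in beta 1 and 16920 in beta 3, and 108053 in delta 1, with no peak in beta 2 or in alpha cells. A further region at −17551 bp from the 5′ end of Foxo6 (chr4:120304510-120305068) ranked 319773, 21749, and 30677 in beta cells and 17779 and 25918 in delta cells, with no peak in alpha cells. In Foxn3, chr12:99393669-99393984 ranked 25868 in beta 1 and 25567 in beta 3 and was absent from every other list. It holds the internal start 169785 bp downstream of the 5′ end. It also lies next to chr12:99392690-99393549, the internal start region called in all 7 libraries.

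At Foxp2, intron 5 held a region (chr6:15304005-15304328) that ranked 26929 in alpha 2, 12693 in beta 1, and 18558 in beta 3 and was in neither delta list. At Foxp4, chr17:47862512-47862735 ranked 8293 and 30862 in alpha cells and 19986 in beta 1, and a region of intron 1 (chr17:47909244-47909634) ranked 71444 in alpha 1, 22974 in beta 1, and 10894 in beta 3. Neither was in a delta list. Without beta 1, the Foxo6 region at 7552, the Foxn3 region, and the introns of Foxp2 and Foxp4 have a peak in a single beta list.

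Among the regions of delta cells, a UTR of Foxj3 (chr4:119627745-119628011) ranked 42662 and 37588 in delta cells and 483283 in beta 1 and was in no alpha list. Intron 4 of Foxn3 (chr12:99248631-99249123) ranked 31320 and 27240 in delta cells and 42362 in alpha 2, and intron 13 of Foxp4 (chr17:47873213-47873714) ranked 24749 and 33215 in delta cells and 54248 in alpha 1. Both were in no beta list.

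The number of regions around a gene was compared with the 50000 strongest peaks of each list, so that lists had equal length. Foxk1 had 5 and 4 peaks in alpha cells, 2, 2, and 2 in beta cells, and 3 and 2 in delta cells. The exact permutation test gave p = 0.0381 and an adjusted p of 0.726. Foxp1 had 15 and 14 peaks in alpha cells, 6, 4, and 8 in beta cells, and 8 and 15 in delta cells, with an exact permutation p of 0.0952 and an adjusted p of 0.811. Foxk1 had more peaks in both alpha libraries than in any other, and the beta and delta numbers overlapped. The Foxp1 numbers of both alpha libraries lay above those of all beta libraries, and delta 1 had as many as beta 3.

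Foxn3 had 16 and 21 peaks in alpha cells, 13, 9, and 21 in beta cells, and 20 and 21 in delta cells. Foxo1 had 4 and 2 in alpha cells, 5, 4, and 5 in beta cells, and 3 and 5 in delta cells. Foxo3 had 3 and 8, then 8, 3, and 8, then 8 and 10. The groups overlapped for all 3. Across the 21046 genes tested, 41 of them members, 0.746% of genes and 0 members were at the smallest p, 5.59% of genes and 1 member (Foxk1) were below 0.05, and 0 genes (0%) passed adjustment, with a smallest adjusted p of 0.726 in this exact test. Summed over the members, the domains held 137 and 137 peaks in alpha cells, 102, 93, and 137 in beta cells, and 126 and 136 in delta cells. The median member had 1 to 3 peaks per library, beside 2 for all genes in every library.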

How the data were processed

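Per the labels, ATAC-Seq was run on 7 libraries of islet cells sorted by flow cytometry, and the authors processed the reads with FastQC, Trimmomatic, Bowtie2, Picard, and MACS2 against mm10; versions are not given in the sources used here. The deposited narrowPeak lists, 1 per library, give each peak's position, a score, a fold enrichment ratio, −log10 p, −log10 q, and the summit offset. They hold no read counts, so that no interval was given. Read numbers per library are in the study's quality table, and their values were not used here. The deposited −log10 p values and fold enrichment ratios were used to rank peaks within a list, and −log10 q to set a threshold of 2. Rows with the same interval were counted once.

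Genes and starts came from GENCODE vM21 and sequences from GRCm38.p6, with Python 3.11.15, numpy 2.4.6, pandas 2.3.3, and matplotlib 3.10.9. RefSeq promoter entries matched 26 of 42 members, and windows were read from the genome for all. Peaks were taken within 1 kb of the 5′ end and in the gene body with 20 kb on each side, and peaks of the 7 lists that overlapped by at least 1 bp were merged into regions. Ranks and peak numbers were compared over cell types by an exact permutation test without direction, with Benjamini-Hochberg adjustment over all genes tested, threshold 0.05. The scripts were tested on simulated data. Values per library were given for the FOXO and FOXP genes, Foxa3, Foxk1, Foxk2, Foxm1, Foxj1, and members with a selective TSS, and for the regions with the strongest weakest rank: 5 present in all libraries and 2 per pair and direction, of which some results are not reported here. The values per library of Foxj2, Foxj3, and the Foxn3 and Foxp1 internal starts were chosen after they were seen. Alternatives tried were a −log10 q threshold of 2, 50000 or 25000 peaks per list, a 3 kb window, 10 kb flanks, any transcript start, other merging, lanes, replicate numbers, and leaving out each library. Members, lists, and tests were chosen with earlier results of these data known.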

Additional observations from a re-analysis of the deposited data

How the results depend on the processing

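Of 148 alternative values over 13 results, 109 kept their size and 39 moved. With a −log10 q of at least 2, members with a TSS peak in at least 2 beta replicates fell from 23 to 14, members selective between beta and delta cells from 2 to 1 (Foxj1), regions in all 7 libraries from 43 to 26, and selective regions from 52 to 31 (alpha and beta), 42 to 17 (alpha and delta), and 47 to 22 (beta and delta). With the 50000 strongest peaks per list these were 15, 0, 28, 28, 17, and 21, and the selective members between alpha and beta cells fell from 1 to 0. A 3 kb window gave 3 (Foxf1, Foxr1, Foxs1) between alpha and beta and 1 (Foxr1) between alpha and delta cells, and any transcript start gave 2 (Foxr1, Foxs1) and 1 (Foxr1). Regions in all 7 libraries were 18 where each list had to cover at least 0.5 of the region and 28 without regions at another TSS.

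Leaving out each library gave 21 to 25 members in alpha cells, 17 to 23 in beta cells, 20 to 25 in delta cells, and 16 to 18 in all 7 libraries. The selective members ranged from 0 to 7 (alpha and beta), 0 to 3 (alpha and delta), and 1 to 4 (beta and delta). Regions in all libraries ranged from 43 to 60, and selective regions from 37 to 173, 42 to 181, and 34 to 167; leaving out 1 of 2 replicates lets a single list call a region. The cause of the other changes was not tested.

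With the replicate block the tests allow 36 assignments, and within lanes 18, with a smallest p of 0.0556 in the exact permutation test; 0 members were called under either, and under every library left out. Deviations from the group means correlated at −0.137 to 0.0145 between libraries of the same replicate number, so that the numbers were not taken to pair the libraries. The lists hold no reads per site, so that weak or absent sites cannot be corrected for depth. The beta libraries had more total reads but fewer uniquely mapped reads than the alpha libraries. The replicate block does not follow the pools of mice that libraries share.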

Other observations

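A few further regions of forkhead genes, chosen after their values were seen and not tested, had peaks in all 3 beta libraries and in neither alpha library. In Foxp2, an intron region (chr6:15321596-15322104) ranked 23508, 12789, and 65216 in beta cells and was in no other list. Upstream of Foxj2, chr6:122804483-122804923 ranked 10589, 9198, and 36557 in beta cells and 36253 in delta 1. In intron 3 of Foxp4, chr17:47884121-47884340 ranked 19987, 25251, and 54040 in beta cells and 30312 in delta 2. In intron 2 of Foxo3, chr10:42202563-42202913 ranked 29017, 27846, and 36509 in beta cells and 44992 and 65174 in delta cells. Because these 4 regions were chosen for peaks in all 3 beta libraries, they span both lanes by that choice, and the part of lane was not tested. The share of such regions over all genes is not given.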
